A study of Homo sapiens with 24 samples.

Results

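The genes described here remove uracil or fluorouracil from DNA and repair the gap that is left. They are the DNA glycosylases UNG, TDG, SMUG1 and MBD4, the abasic site endonuclease APEX1, the gap-filling polymerase POLB, the scaffold XRCC1, the ligase LIG3 and the strand break sensor PARP1. They were chosen by name, as the 9 rows of a table of 63299 genes whose Ensembl identifiers belong to these symbols, and each symbol had 1 row. RNA was sequenced from 24 libraries of human ovarian cancer cells, 3 in each of 8 groups: platinum-sensitive A2780 cells and their platinum-resistant derivative A2780cis, untreated or treated with 1 μM 5-FdU-ECyd, at 6 h and at 12 h. 5-FdU-ECyd is a duplex drug that couples the antimetabolite 5-FdU, a fluorinated nucleoside that blocks thymidylate synthase and can itself enter DNA, with ECyd, a cytidine analog that inhibits RNA synthesis. Untreated cells received growth medium alone, and A2780cis cells were kept resistant by repeated passages in cisplatin and were seeded at a higher number than A2780 cells. The pair is 1 parental line and 1 derived line, so that platinum resistance cannot be told apart from any other difference between them. The labels number the replicates but do not say that they were separate cultures. The study's figure legends call them biological triplicates, without saying how far apart they were grown. The p-values measure the spread between these libraries.

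Base excision repair starts when a glycosylase flips a damaged or misplaced base out of the helix and cuts its bond to the sugar. APEX1 nicks the strand at the empty site, POLB inserts the missing nucleotide and removes the remaining sugar phosphate, and LIG3, held by XRCC1, seals the nick, while PARP1 binds the open strand and recruits XRCC1. Uracil and fluorouracil enter DNA when thymidine nucleotides run short or when a fluorinated nucleotide is built in, which is the setting in which thymidylate synthase inhibitors are known to engage this pathway.

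The 24 libraries held between 11077368 and 21901406 counts, and all 9 genes passed the filter on low counts, as did 20240 genes in all. The rounded counts of the 9 genes ranged from 122 to 482 per library for POLB, the gene with the fewest, up to 4772 to 11306 for PARP1. Levels are given as CPM, the usual scaling of counts to a common TMM-normalized library size, so that they are shares of the RNA sequenced and say nothing of the amount of RNA per cell. Each adjusted p printed for a gene is that of edgeR's two-sided quasi-likelihood test, with Benjamini-Hochberg adjustment over the 20240 genes, and a gene was called when its adjusted p was at most 0.05. Of the markers of ovarian epithelial carcinoma, PAX8, WT1, MUC16 and CDH1 had at most 0.14 CPM in any library and KRT7 had 0. EPCAM had at most 1.96, KRT8 at most 6.80 and KRT18 at most 28.4 CPM. Of the mesenchymal markers VIM had between 788 and 2769 CPM and CDH2 between 1.21 and 55.6. The labelled origin of the cells was thus not visible in most of its usual markers. Of the markers of other cells that a culture should lack, PTPRC and PECAM1, of blood and endothelial cells, were at most 0.09 CPM. COL1A1, from the same list, lay between 0.10 and 16.03 CPM.

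The start sites of these genes are shown because UNG has more than one and because APEX1 and LIG3 had the largest decreases and MBD4 rose in both lines. Sequences are those of RefSeq on GRCh38.p14, 300 bases that run from 250 before to 50 after a start site, written on the strand of the gene, and a window was given for 7 of the 9 genes, all except SMUG1 and POLB. Capitals mark CACGTG, the core E-box read the same on both strands, and the letters TTTCCCGC, TTTCGCGC, TTTGCCGC or TTTGGCGC on either strand, a simple form of the motif of E2F factors. UNG is shown at both of its start sites (chr12:109097347-109097646 and chr12:109097922-109098221, plus strand), which are known to give rise to a nuclear and a mitochondrial form of the enzyme and whose transcripts are summed in the gene's count. APEX1 is at chr14:20454976-20455275 (plus strand), LIG3 at chr17:34980262-34980561 (plus strand) and MBD4 at chr3:129439899-129440198 (minus strand).
UNG, upstream start site: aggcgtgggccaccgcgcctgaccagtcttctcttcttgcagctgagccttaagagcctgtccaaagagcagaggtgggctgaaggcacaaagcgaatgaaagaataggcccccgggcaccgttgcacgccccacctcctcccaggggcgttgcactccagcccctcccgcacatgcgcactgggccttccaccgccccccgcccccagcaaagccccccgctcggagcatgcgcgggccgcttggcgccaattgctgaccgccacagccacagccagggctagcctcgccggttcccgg
UNG, downstream start site: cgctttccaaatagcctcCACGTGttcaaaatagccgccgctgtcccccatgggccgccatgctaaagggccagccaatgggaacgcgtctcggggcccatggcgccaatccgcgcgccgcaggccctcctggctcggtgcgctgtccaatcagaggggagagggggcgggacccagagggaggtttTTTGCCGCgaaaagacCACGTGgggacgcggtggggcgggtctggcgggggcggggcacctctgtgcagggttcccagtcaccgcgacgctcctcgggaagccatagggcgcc
APEX1: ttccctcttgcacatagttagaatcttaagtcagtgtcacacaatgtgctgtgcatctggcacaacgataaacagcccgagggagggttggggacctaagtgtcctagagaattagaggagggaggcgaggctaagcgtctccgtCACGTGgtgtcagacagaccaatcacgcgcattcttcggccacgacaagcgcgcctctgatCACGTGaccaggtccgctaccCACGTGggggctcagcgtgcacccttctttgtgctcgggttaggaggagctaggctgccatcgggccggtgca
LIG3: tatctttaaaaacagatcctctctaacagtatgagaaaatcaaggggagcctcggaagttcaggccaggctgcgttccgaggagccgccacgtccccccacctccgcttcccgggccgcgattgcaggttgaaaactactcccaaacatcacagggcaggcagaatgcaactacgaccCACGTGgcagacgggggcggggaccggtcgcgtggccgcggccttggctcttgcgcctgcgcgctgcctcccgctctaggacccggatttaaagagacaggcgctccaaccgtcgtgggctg
MBD4: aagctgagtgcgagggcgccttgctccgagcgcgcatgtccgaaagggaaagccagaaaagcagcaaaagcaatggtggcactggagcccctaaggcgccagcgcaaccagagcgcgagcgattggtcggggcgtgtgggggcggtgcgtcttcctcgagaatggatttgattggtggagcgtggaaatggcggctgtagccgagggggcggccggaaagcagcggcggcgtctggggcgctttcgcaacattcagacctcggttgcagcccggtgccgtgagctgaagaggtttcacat

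CACGTG was found 3 times at APEX1, 2 times at the downstream start site of UNG and once each at LIG3 and TDG, and not in the windows of MBD4, XRCC1 and PARP1. Of all 35116 windows of this length, 7.26% held it. The E2F-type letters were found once, at the downstream start site of UNG, and in 3.31% of all windows. CCAAT, on either strand, was found in the windows of UNG, TDG, MBD4, APEX1 and XRCC1 and in 34.6% of all windows. These are matches of letters, and no binding was measured.

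After 12 h of treatment the 9 genes were called in shares near those of all genes tested, in both directions. In A2780, 6 of the 9 genes were called, with MBD4, POLB and SMUG1 higher and APEX1, LIG3 and PARP1 lower, where 54.8% of all genes tested were called, 28.6% higher and 26.1% lower. In A2780cis, 7 of the 9 were called, with SMUG1, POLB and MBD4 higher and LIG3, APEX1, TDG and PARP1 lower, against 59.9% of all genes, 31.0% higher and 28.9% lower. At 6 h, 6 of 9 were called in A2780 (UNG, MBD4, PARP1 and XRCC1 higher, TDG and LIG3 lower), against 29.4% of all genes (16% higher, 13.4% lower), and 2 of 9 in A2780cis (SMUG1 higher, LIG3 lower), against 30.7% (14.4% higher, 16.3% lower). The count at 6 h in A2780 was 3 without untreated replicate 1, without treated replicate 1 or without treated replicate 2. In A2780cis at 6 h it was 1 without untreated replicate 1, and 0 without untreated replicate 2, treated replicate 2 or treated replicate 3. The samples are bulk cultures, in which fewer cells of a kind and less RNA per cell cannot be told apart.

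The median log2 FC of the 9 genes was 0.05 in A2780 and -0.17 in A2780cis at 12 h, where the medians of all genes tested were 0.02 and 0.04. At 6 h it was 0.20 and -0.03, beside 0.04 and 0.00 for all genes. When libraries were scaled by their totals alone in place of TMM, the median of all genes moved to 0.24 and 0.15 at 12 h and to 0.10 in both lines at 6 h, and the share of higher genes among those called went from 52.3% to 70.7% in A2780 at 12 h and from 47.0% to 61.4% in A2780cis at 6 h. The split of the 9 genes then became 6 higher and 2 lower in A2780 and 4 higher and 3 lower in A2780cis at 12 h, and 4 higher and 1 lower in A2780 and 1 higher and 0 lower in A2780cis at 6 h. With the size factors of DESeq2 the split was 3 and 3 in A2780 at 6 h. Changes below are those under TMM.

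**Figure D1:**
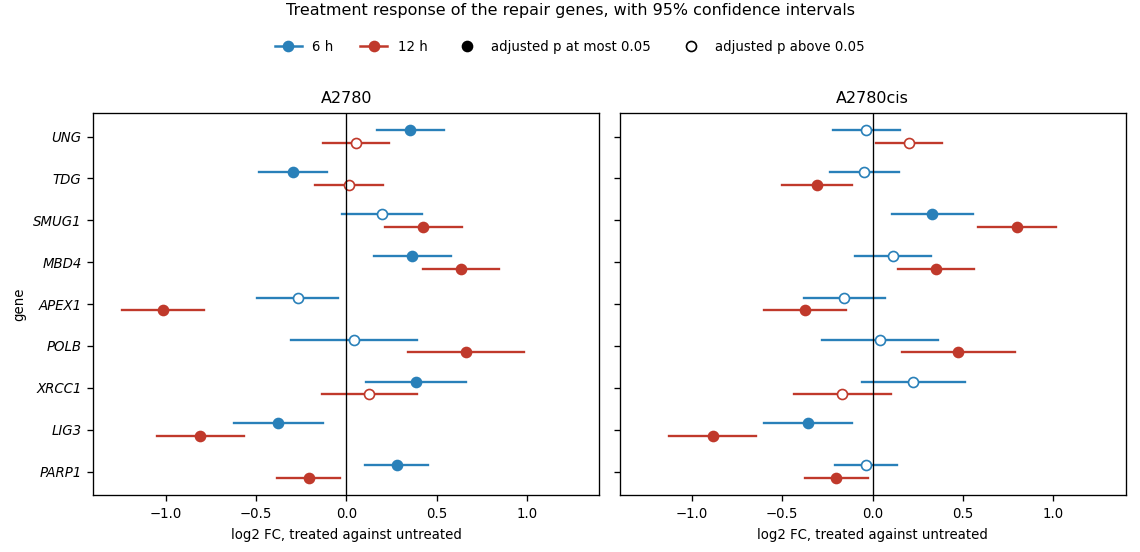
Log2 FC of treated against untreated cells (x axis) for each of the 9 genes (y axis) in A2780 (left) and A2780cis (right), at 6 h (blue) and 12 h (red), with bars for 95% confidence intervals and filled points for an adjusted p of at most 0.05. At 12 h APEX1 sits at -1.01 in A2780 and -0.37 in A2780cis, LIG3 is below -0.80 in both lines, and SMUG1, MBD4 and POLB are above 0 in both. PARP1 at 12 h lies at -0.21 in A2780 under TMM and at 0.01 with scaling by library totals alone.

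Of the 4 glycosylases, SMUG1 and MBD4 rose at 12 h in both lines, whereas under TMM UNG and TDG were not called higher in either line at that time. With scaling by library totals alone UNG was called higher at 12 h in both lines (log2 FC = 0.27, adjusted p = 0.00273 in A2780, and 0.30, adjusted p = 0.00109 in A2780cis) and TDG in A2780 (0.23, adjusted p = 0.0141). SMUG1, a uracil glycosylase that also takes out oxidized uracil derivatives (ENSG00000123415.15, chromosome 12, 54121277 to 54189008, minus strand), had 26.6, 28.4 and 28.6 CPM in A2780 libraries of 12 h without the drug and 35.7, 38.1 and 38.5 CPM with it. A2780cis libraries had 22.6, 18.7 and 20.9 CPM without and 35.1, 32.5 and 41.0 CPM with the drug. Every treated library of 12 h lay above every untreated one in both lines. SMUG1 rose 1.34-fold in A2780 (log2 FC = 0.43, SE 0.10, adjusted p = 0.00115) and 1.74-fold in A2780cis (log2 FC = 0.80, SE 0.11, adjusted p = 3.87e-07). At 6 h the treated A2780cis libraries had 24.2, 28.4 and 27.3 CPM against 22.7, 18.4 and 22.4 CPM, an increase of 0.33 on the log2 scale (adjusted p = 0.023), and the libraries of the groups did not overlap. That call was lost without untreated replicate 2 (adjusted p = 0.145), treated replicate 2 (0.102) or treated replicate 3 (0.0815). In A2780 at 6 h the means were 27.7 ± 1.59 and 31.7 ± 0.751 CPM (SD, n = 3), with an adjusted p of 0.171. A short stretch of SMUG1, 2.97% of its exon bases, is shared with each of the noncoding genes FLJ12825 and FAM242C.

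MBD4, which excises thymine, uracil or fluorouracil opposite guanine and binds methylated CpG sites (ENSG00000129071.9, chromosome 3, 129430947 to 129440179, minus strand), had 42.1, 43.3 and 36.7 CPM in untreated A2780 cells of 12 h and 72.5, 58.8 and 58.2 CPM after treatment. In A2780cis the values were 51.3, 44.01 and 42.4 CPM and 61.9, 55.9 and 58.0 CPM. The treated libraries were higher throughout, and replicate 1 of the treated A2780 group stood above the other two. Against untreated cells of 12 h the rise was 1.55-fold in A2780 (log2 FC = 0.63, SE 0.10, adjusted p = 9.49e-06) and 1.28-fold in A2780cis (log2 FC = 0.35, SE 0.10, adjusted p = 0.00422). At 6 h MBD4 rose in A2780, from 47.5, 53.6 and 46.4 to 56.6, 67.1 and 66.1 CPM (log2 FC = 0.37, SE 0.10, adjusted p = 0.00936), with an adjusted p of 0.0514 without treated replicate 2. In A2780cis at 6 h the means were 61.2 ± 3.57 and 66.2 ± 1.86 CPM, a difference that did not pass the test (adjusted p = 0.441). The treated A2780 groups had 63.3 ± 5.79 CPM at 6 h and 63.2 ± 8.07 CPM at 12 h. The untreated ones had 49.2 ± 3.93 and 40.7 ± 3.51 CPM (adjusted p = 0.052, called in 5 of the 8 alternative settings). In A2780cis the untreated level fell from 61.2 ± 3.57 to 45.9 ± 4.77 CPM (adjusted p = 0.00273). The treated A2780cis mean of 12 h, 58.6 ± 3.04 CPM, was below both A2780cis means of 6 h. MBD4 shares 8.32% of its exon bases with IFT122 on the opposite strand, and IFT122 had log2 FCs of -0.21 and -0.03 at 12 h (adjusted p = 0.167 and 0.837).

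UNG encodes the main uracil glycosylase of replicating cells (ENSG00000076248.10, chromosome 12, 109097597 to 109126725, plus strand). At 6 h untreated A2780 cells had 57.1, 63.5 and 58.7 CPM and treated ones 73.9, 80.0 and 75.4 CPM, with no overlap. This was an increase of 1.28-fold (log2 FC = 0.35, SE 0.09, adjusted p = 0.00429), and it was called with each library left out. At 12 h the A2780 values were 61.5, 59.4 and 65.4 CPM without and 70.8, 63.1 and 59.7 CPM with the drug, and the groups overlapped (adjusted p = 0.625). In A2780cis the treated libraries of 6 h, with 63.9, 61.4 and 63.3 CPM, lay inside the range of the untreated ones, with 57.9, 69.1 and 66.2 CPM. At 12 h the untreated A2780cis libraries had 53.6, 54.2 and 54.0 CPM, close to one another, and the treated ones 66.7, 54.5 and 64.7 CPM, all above them by a margin that was small for replicate 2. The difference of 0.20 on the log2 scale missed the threshold (adjusted p = 0.054) and passed it without treated replicate 2 (adjusted p = 0.00993), with scaling by library totals alone (0.00109) and without lncRNA and rRNA genes (0.00931). In A2780 the 12 h log2 FC of UNG was 0.05 under TMM and 0.27 with library totals alone (adjusted p = 0.00273).

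TDG removes thymine, uracil and fluorouracil from mispairs with guanine and takes part in active demethylation (ENSG00000139372.14, chromosome 12, 103965822 to 103988874, plus strand). It fell at 6 h in A2780, from 151, 145 and 142 to 110.3, 120.3 and 127 CPM (log2 FC = -0.30, SE 0.09, adjusted p = 0.017). Without untreated replicate 1 or treated replicate 1 the adjusted p was 0.0721 or 0.103. At 12 h the A2780 libraries overlapped, with 114, 110.2 and 101 CPM untreated and 119, 104 and 106 CPM treated (adjusted p = 0.918). In A2780cis it was the other way round in time: TDG had 98.8 ± 3.53 and 95.8 ± 3.92 CPM at 6 h (adjusted p = 0.762) and fell at 12 h, from 77.5, 68.3 and 65.0 to 65.6, 53.9 and 51.0 CPM (log2 FC = -0.31, SE 0.09, adjusted p = 0.00607), although treated replicate 1 reached the lowest untreated library. Neither the responses of the lines at 6 h nor those at 12 h were shown to differ (adjusted p = 0.357 and 0.0754), although the 12 h difference was called without treated A2780cis replicate 1 (adjusted p = 0.0107). The deposited counts of TDG were not whole in 23 of the 24 libraries, the form that reads with several alignments take when they are counted as fractions, and their share was not tested.

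APEX1, the endonuclease that carries nearly all cutting at abasic sites in human cells and also acts as a redox factor for transcription factors (ENSG00000100823.11, chromosome 14, 20455191 to 20457772, plus strand), had the largest decrease among the 9 genes in A2780 at 12 h. Untreated A2780 cells of 12 h had 286, 261 and 282 CPM and treated ones 145, 129 and 136 CPM. In A2780cis the values were 269, 229.6 and 239 CPM and 199, 152 and 218 CPM. No groups overlapped, and in A2780cis treated replicate 2 was well below the other two. APEX1 fell to 0.495 of its untreated level in A2780 (log2 FC = -1.01, SE 0.11, adjusted p = 2.3e-08) and to 0.772 in A2780cis (log2 FC = -0.37, SE 0.11, adjusted p = 0.00462). Among all genes tested, 79.5% had an absolute log2 FC no larger than that of APEX1 in A2780. Without treated replicate 2 the A2780cis log2 FC was -0.24, at an adjusted p of 0.0498. At 6 h APEX1 had 274 ± 14.9 and 227 ± 9.08 CPM in A2780 (adjusted p = 0.0655) and 258 ± 36.7 and 232 ± 8.69 CPM in A2780cis (adjusted p = 0.297). The A2780 difference at 6 h, -0.27 on the log2 scale, missed the threshold here and passed it in 5 of the 8 alternative settings, with an adjusted p of 0.0305 with the size factors of DESeq2. It was called with 0 of the 6 libraries left out in turn, and the highest adjusted p over all alternatives was 0.183. APEX1 shares 4.88% of its exon bases with the opposite-strand gene PIP4P1, whose log2 FC in A2780 at 12 h was 0.20 (adjusted p = 0.092).

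LIG3, the ligase that works with XRCC1 in the nucleus and alone in mitochondria (ENSG00000005156.11, chromosome 17, 34980512 to 35009743, plus strand), was called lower in all 4 treatment comparisons under TMM. How many of all genes were called in the same direction in all 4 was not counted, and TDP1, described below, also fell in all 4. At 12 h it had 57.9, 61.6 and 66.2 CPM in untreated and 32.6, 36.6 and 36.9 CPM in treated A2780 cells. In A2780cis it had 55.1, 65.6 and 60.7 CPM and 31.2, 36.5 and 30.4 CPM. The groups were far apart in both lines. LIG3 fell to 0.571 of the untreated level in A2780 (log2 FC = -0.81, SE 0.12, adjusted p = 2.07e-06) and to 0.541 in A2780cis (log2 FC = -0.89, SE 0.12, adjusted p = 4.49e-07), both called with each library left out. At 6 h it fell from 50.5, 47.3 and 56.2 to 37.8, 41.2 and 39.7 CPM in A2780 (log2 FC = -0.38, SE 0.12, adjusted p = 0.0193). In A2780cis at 6 h the treated libraries, with 45.0, 42.9 and 44.1 CPM, were close together, and the untreated ones, with 56.7, 68.4 and 44.3 CPM, were spread widely, so that 2 lay above the treated libraries and the lowest lay among them (log2 FC = -0.36, SE 0.12, adjusted p = 0.023). The call at 6 h in A2780 was lost without untreated replicate 3 (adjusted p = 0.0799) or treated replicate 1 (0.0775). In A2780cis it was lost without untreated replicate 1 (0.0526) or 2 (0.228) and without treated replicate 2 (0.069) or 3 (0.0593), and the log2 FC was -0.20 without untreated replicate 2. With scaling by library totals alone neither 6 h call was made.

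RFFL, a ubiquitin ligase gene on the opposite strand, overlaps 29.1% of the exon bases of LIG3, and the strand setting of the counting is not among its stated parameters. RFFL had 14.99 ± 0.633 CPM in untreated and 15.4 ± 0.776 CPM in treated A2780 cells of 12 h, a log2 FC of 0.04 (adjusted p = 0.809). In A2780cis it had 21.8 ± 1.31 and 17.7 ± 2.14 CPM (log2 FC = -0.30, adjusted p = 0.025), with an adjusted p of 0.0902 without untreated replicate 2 and 0.0956 without treated replicate 3. That call was also lost with library totals alone (log2 FC = -0.19, adjusted p = 0.214), with the compared groups alone (0.0761) and without lncRNA and rRNA genes (0.074). At 12 h RFFL was thus below LIG3 in CPM in the untreated cells of both lines, and its log2 FCs were nearer 0. The part of the shared bases in the counts of LIG3 was not tested.

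POLB, the polymerase of short-patch base excision repair (ENSG00000070501.11, chromosome 8, 42338454 to 42371808, plus strand), rose at 12 h in both lines. In A2780 it had 13.4, 11.7 and 12.4 CPM untreated and 23.3, 18.9 and 17.4 CPM treated. In A2780cis it had 19.4, 16.4 and 15.8 CPM and 26.6, 19.1 and 26.1 CPM. The A2780 groups were apart, and in A2780cis treated replicate 2 lay just under the highest untreated library. The increase was 1.58-fold in A2780 (log2 FC = 0.66, SE 0.16, adjusted p = 0.000824) and 1.39-fold in A2780cis (log2 FC = 0.48, SE 0.15, adjusted p = 0.0089). In A2780cis the call was lost without treated replicate 1 (adjusted p = 0.0667) or treated replicate 3 (0.0595). At 6 h POLB had 12.3 ± 2.38 and 12.6 ± 2.21 CPM in A2780 and 21.4 ± 3.65 and 22.0 ± 0.676 CPM in A2780cis, and the 95% confidence intervals of the log2 FC, -0.31 to 0.39 and -0.28 to 0.36, were the widest among the 9 genes at that time.

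XRCC1, the scaffold that holds POLB and LIG3 at the break (ENSG00000073050.11, chromosome 19, 43543311 to 43580473, minus strand), was called in 1 treatment comparison under TMM. At 6 h in A2780 it had 16.3, 25.2 and 24.6 CPM untreated and 29.9, 30.5 and 25.5 CPM treated (log2 FC = 0.38, SE 0.14, adjusted p = 0.0337). Untreated replicate 1 stood far below the other libraries. Without it the log2 FC was 0.20 (adjusted p = 0.292), and the call was also lost without treated replicate 1 (0.111) or 2 (0.116), with the size factors of DESeq2 (0.0532) and with the compared groups alone (0.0798). At 12 h the levels were 30.9 ± 0.801 and 33.6 ± 3.12 CPM in A2780 and 25.4 ± 3.53 and 22.6 ± 1.78 CPM in A2780cis, with adjusted p-values of 0.421 and 0.278, and with library totals alone the A2780 log2 FC went from 0.13 to 0.35 (adjusted p = 0.0364). In A2780cis at 6 h they were 17.05 ± 0.908 and 19.9 ± 1.15 CPM (adjusted p = 0.23). XRCC1 shares 17.6% of its exon bases with the opposite-strand gene ENSG00000269583 and 8.16% with the same-strand gene ENSG00000268361, and reads in shared bases can be counted for both genes of a pair.

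PARP1, which senses strand breaks and marks proteins around them with ADP-ribose chains (ENSG00000143799.12, chromosome 1, 226360210 to 226408154, minus strand), rose at 6 h in A2780, from 422, 486 and 434 to 546, 571 and 511 CPM (log2 FC = 0.28, SE 0.08, adjusted p = 0.0145). The adjusted p was 0.0905 without untreated replicate 1, 0.0522 without untreated replicate 3 and 0.0752 without treated replicate 2. At 12 h it had 522, 545 and 539 CPM in untreated and 489, 462 and 439.8 CPM in treated A2780 cells, and 504, 539.8 and 528 CPM and 461, 441 and 467 CPM in A2780cis. The treated libraries of 12 h were lower in both lines, with no overlap and by little. The decrease passed the threshold narrowly under TMM, to 0.866 of the untreated level in A2780 (log2 FC = -0.21, SE 0.08, adjusted p = 0.0387) and to 0.870 in A2780cis (log2 FC = -0.20, SE 0.08, adjusted p = 0.0427), and with scaling by library totals alone the log2 FC was 0.01 in A2780 and -0.10 in A2780cis, neither called. The A2780 call was also lost without untreated replicate 2 (adjusted p = 0.0935) or 3 (0.0751) and without treated replicate 2 (0.0842) or 3 (0.131). The A2780cis call was lost without untreated replicate 2 (0.11) or 3 (0.0808) or treated replicate 2 (0.101). With no filter (adjusted p = 0.101 in A2780 and 0.0623 in A2780cis) and without lncRNA and rRNA genes (0.0512 and 0.129) neither call was made. The A2780cis call was also lost with the compared groups alone (0.134). Of the 8 alternative settings, 5 called the decrease in A2780 and 4 in A2780cis. At 6 h in A2780cis the means were 530.3 ± 53.7 and 517 ± 13.8 CPM (adjusted p = 0.797). The counts of PARP1 were not whole in 17 of the 24 libraries.

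**Figure D2:**
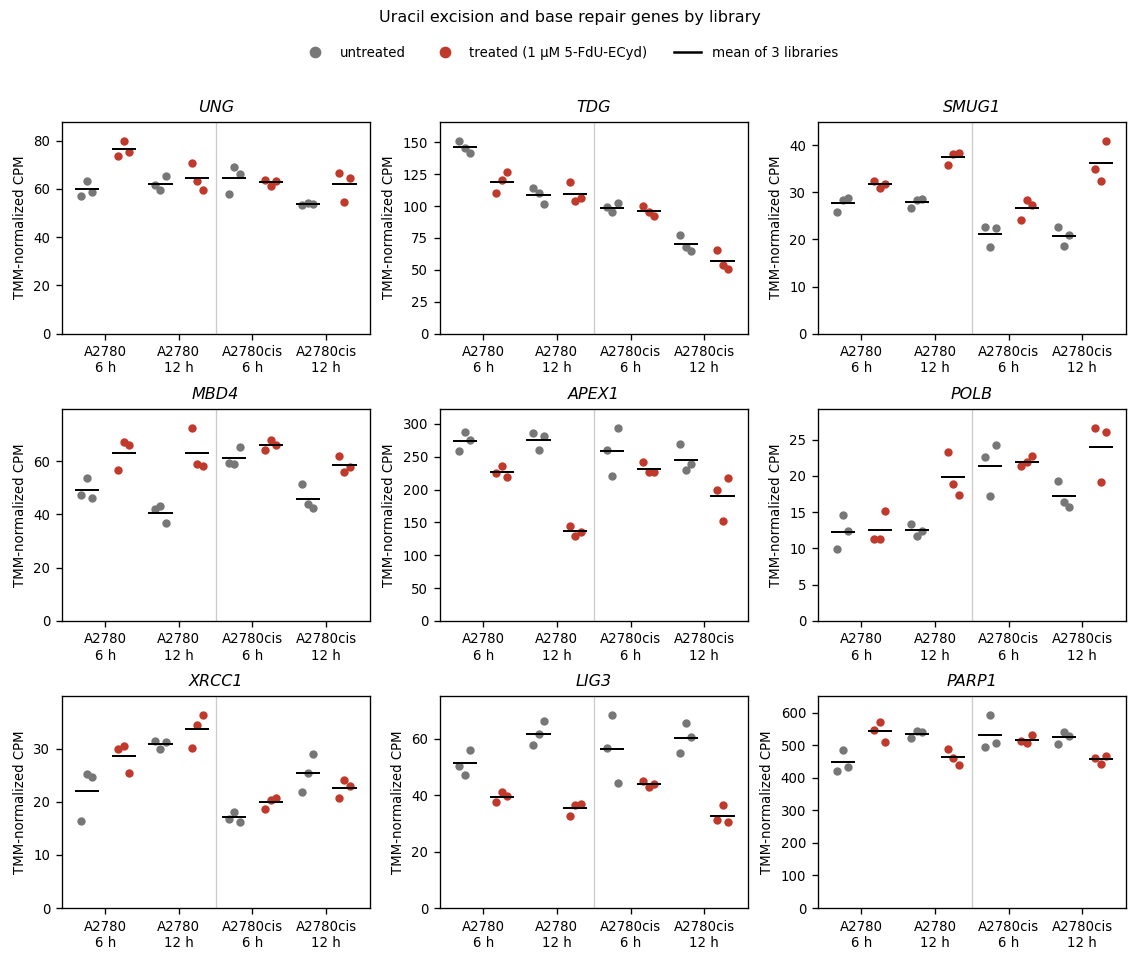
TMM-normalized CPM (y axis, from 0) of each of the 9 genes in every library, by line and time (x axis), with untreated libraries in grey, treated ones in red and a line at the mean of 3 libraries. In A2780 at 12 h the treated libraries of APEX1 lie at 129 to 145 CPM, below the untreated ones at 261 to 286, and those of LIG3 at 32.6 to 36.9 CPM, below 57.9 to 66.2.

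The response to the drug was then compared between the lines, gene by gene, by the interaction of line and treatment. At 12 h 1 of the 9 genes was called, APEX1, where 23.7% of all genes were, 9.7% with a higher and 14% with a lower response in A2780cis. Its response was 0.64 higher on the log2 scale in A2780cis than in A2780 (SE 0.15, adjusted p = 0.00396), a smaller decrease in the resistant line, and it was called in all 8 alternative settings and with each of the 12 libraries left out. For the other 8 genes the lines were not shown to differ: the 95% confidence intervals of the difference were -0.42 to 0.26 for LIG3, -0.24 to 0.25 for PARP1, -0.11 to 0.40 for UNG, -0.64 to 0.26 for POLB, -0.58 to 0.01 for MBD4 and -0.67 to 0.08 for XRCC1. Those of SMUG1 (0.07 to 0.68) and TDG (-0.59 to -0.05) did not include 0, with adjusted p-values of 0.0659 and 0.0754. The DESeq2 Wald test called both of them. With scaling by library totals alone the median difference of all genes went from -0.04 to -0.16, the share of higher genes among those called from 41.0% to 27.0%, and 3 of the 9 genes were called, 1 higher and 2 lower. SMUG1 was also called without A2780cis untreated replicate 1 (adjusted p = 0.0439) or treated replicate 2 (0.0299).

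At 6 h edgeR's quasi-likelihood test called 0 of the 9 genes for a difference between the lines, against 3.07% of all genes (0.692% higher, 2.38% lower). At an unadjusted p under 0.05 there were 2 of the 9, beside 3229 of the 20240 genes tested. These 2 were UNG (-0.39 on the log2 scale, adjusted p = 0.0985) and PARP1 (-0.31, adjusted p = 0.167), both with a lower response in A2780cis. The DESeq2 Wald test also called 0.

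Between 6 h and 12 h the response of A2780 shifted for 2 of the 9 genes, both downwards, against 23.7% of all genes (10.7% up, 13.0% down). That of A2780cis shifted for 2, 1 in each direction, against 24% (10.3% up, 13.6% down). In A2780 the response of APEX1 went down by a further 0.75 on the log2 scale (log2 FC = -0.75, SE 0.15, adjusted p = 0.00118). That of PARP1 went from an increase to a decrease under TMM (log2 FC = -0.49, SE 0.12, adjusted p = 0.00432), and both were called with each library left out. The untreated mean of PARP1 rose from 447 ± 34.0 CPM at 6 h to 535 ± 12.0 CPM at 12 h. Its treated mean fell from 542 ± 30.3 to 464 ± 24.7 CPM. With scaling by library totals alone its 12 h log2 FC was 0.01. In A2780cis the response of SMUG1 grew (log2 FC = 0.47, SE 0.15, adjusted p = 0.0252) and that of LIG3 fell further (log2 FC = -0.53, SE 0.17, adjusted p = 0.022). SMUG1 was called with 6 of the 12 libraries left out in turn and LIG3 with 10. For SMUG1 the libraries that decided the call were untreated replicates 1 and 3 and treated replicate 1 of 6 h, and untreated replicate 2 and treated replicates 1 and 3 of 12 h, with adjusted p-values from 0.0606 to 0.162 without them and a log2 difference of 0.30 without treated replicate 3 of 12 h. For LIG3 they were untreated replicate 3 of 6 h (adjusted p = 0.0762) and untreated replicate 2 of 12 h (0.0621). Comparisons of response use the same libraries as the treatment comparisons and are not independent of them. POLB in A2780 came near the threshold (log2 FC = 0.62, SE 0.23, adjusted p = 0.0515) and was called in 7 of the 8 alternative settings and with 3 of the 12 libraries left out in turn, with an adjusted p of up to 0.163. TDG in A2780 (log2 FC = 0.31, adjusted p = 0.0857) was called higher in 5 of the 8 alternative settings and with 0 of the 12 libraries left out in turn. The direction of the calls in A2780 thus depended on the setting. With the size factors of DESeq2, with the DESeq2 Wald test and without lncRNA and rRNA genes, 2 of the 9 genes were called higher and 2 lower. With the compared groups alone 2 were higher and 3 lower. With scaling by library totals alone the share of higher genes among all those called for a shift in A2780 went from 45.1% to 69.7%, and 5 of the 9 genes were called, 3 higher and 2 lower.

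Without the drug, the lines differed in 5 of the 9 genes, where 61.3% of all genes were called, 31.1% higher and 30.2% lower in A2780cis (mean of the 6 h and 12 h differences, 6 libraries per line). TDG was lower in A2780cis (log2 FC = -0.60, SE 0.07, adjusted p = 1.05e-08), with 146 ± 4.63 and 109 ± 6.61 CPM in A2780 at 6 h and 12 h against 98.8 ± 3.53 and 70.3 ± 6.50 CPM in A2780cis. SMUG1 (log2 FC = -0.40, SE 0.08, adjusted p = 5.17e-05) and XRCC1 (log2 FC = -0.32, SE 0.10, adjusted p = 0.0048) were lower as well. POLB was 1.55-fold higher in A2780cis (log2 FC = 0.64, SE 0.11, adjusted p = 2.51e-05), with 12.3 ± 2.38 and 12.5 ± 0.857 CPM in A2780 against 21.4 ± 3.65 and 17.2 ± 1.91 CPM. MBD4 was 1.19-fold higher (log2 FC = 0.25, SE 0.07, adjusted p = 0.00475). These 5 calls were also made in all 8 alternative settings and with each of the 12 libraries left out. The 95% confidence intervals of the other 4 were -0.18 to 0.08 for UNG, -0.28 to 0.03 for APEX1, -0.02 to 0.23 for PARP1 and -0.12 to 0.22 for LIG3.

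Untreated cells also changed with time in culture, which is why each treated group was set against untreated cells of its own time. From 6 h to 12 h, 3 of the 9 genes were called in A2780, against 26.9% of all genes (16.6% higher, 10.3% lower at 12 h), and 4 of 9 in A2780cis, against 39.9% (18.0% higher, 21.9% lower). TDG fell in both lines (log2 FC = -0.43, adjusted p = 0.00236 in A2780, and -0.49, adjusted p = 0.000291 in A2780cis), and XRCC1 rose in both (0.49, adjusted p = 0.00945, and 0.58, adjusted p = 0.00191). PARP1 rose in A2780 (0.26, adjusted p = 0.0248), and MBD4 (-0.42, adjusted p = 0.00273) and UNG (-0.26, adjusted p = 0.0252) fell in A2780cis. XRCC1 in A2780 was not called without untreated replicate 1 of 6 h (log2 FC = 0.31, adjusted p = 0.105). PARP1 was not called without replicate 1 (0.135) or 3 (0.0718) of 6 h, or replicate 2 (0.0757) or 3 (0.0809) of 12 h. UNG in A2780cis was called with 1 of its 6 libraries left out, replicate 1 of 6 h, and the adjusted p lay between 0.0551 and 0.117 without any one of the others. Its log2 FC was -0.08 with scaling by library totals alone (adjusted p = 0.423), and the call was also lost with no filter (0.307) and with the compared groups alone (0.203). The A2780 count was 1 without replicate 1 of 6 h. With scaling by library totals alone the share of higher genes among all those called was 71.9% in A2780 in place of 61.7%, and 74.6% in A2780cis in place of 45.2%, while the 9 genes split into 2 higher and 1 lower, and 1 higher and 2 lower.

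Divided by the length of the MANE Select transcript, the untreated levels of the 9 genes in A2780 spanned from 6.76 ± 0.831 CPM per kb for LIG3 to 189 ± 8.78 CPM per kb for APEX1 (mean ± SD of 6 libraries, 6 h and 12 h). PARP1 came second with 123 ± 13.4 CPM per kb, and no library of it reached the lowest of APEX1. The glycosylases followed, with TDG at 40.0 ± 6.67, UNG at 29.8 ± 1.51 and MBD4 at 18.8 ± 2.39 CPM per kb, and SMUG1 stood apart from them at 10.4 ± 0.458 CPM per kb, next to XRCC1 at 12.9 ± 2.82 and POLB at 9.61 ± 1.24. The ranges of TDG and UNG touched, and those of XRCC1, SMUG1 and POLB overlapped, as did those of POLB and LIG3, so that the order within these pairs is not beyond the spread of the libraries. In A2780cis the order was APEX1 (173 ± 18.9), PARP1 (133 ± 9.05), UNG (28.9 ± 3.33), TDG (26.6 ± 5.13), MBD4 (22.4 ± 3.85), POLB (14.9 ± 2.69), XRCC1 (10.4 ± 2.50), SMUG1 (7.82 ± 0.746) and LIG3 (6.97 ± 1.02 CPM per kb). There UNG, TDG and MBD4 overlapped one another, as did MBD4 and POLB, POLB and XRCC1, XRCC1 and SMUG1, and SMUG1 and LIG3. With the length of all exons of a gene joined, APEX1, PARP1 and TDG held the first 3 places in both lines, but the mean of PARP1 was 26.7 CPM per kb in A2780 beside 26.1 for TDG. On that scale MBD4 stood above UNG in both lines (13.4 and 11.6 CPM per kb in A2780), and the lowest place went from LIG3 to POLB in A2780 and to SMUG1 in A2780cis.

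**Figure D3:**
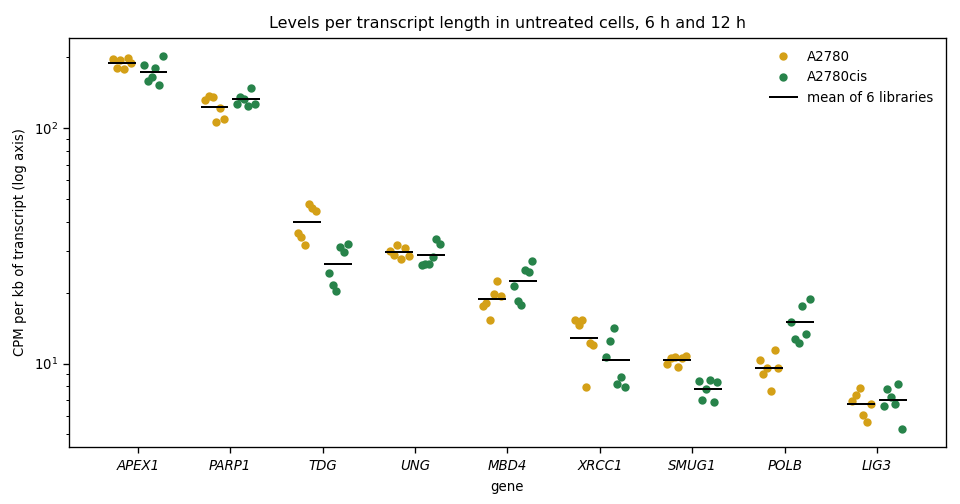
CPM per kb of transcript (y axis, log scale) of the 9 genes (x axis) in the 6 untreated libraries of A2780 (yellow) and of A2780cis (green), with a line at the mean. APEX1 and PARP1 lie above 100 CPM per kb in every library, and the TDG libraries of A2780cis reach from 20.4 to 32.1 CPM per kb, against 31.8 to 47.5 in A2780.

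A list of 30 other genes of base excision repair and of the removal of dUTP was set beside the 9. It holds glycosylases of oxidized and alkylated bases, end-processing enzymes, the long-patch factors PCNA, FEN1 and LIG1, and subunits of polymerases delta and epsilon. At 12 h 22 of the 30 were called in A2780 (13 higher, 9 lower) and 18 in A2780cis (8 higher, 10 lower, APLF with its few counts among the higher), and at 6 h 13 (12 higher, 1 lower) and 16 (12 higher, 4 lower), to be read against the same background shares as above. Without untreated replicate 1 of 6 h, 7 were called in A2780 at 6 h, and in A2780cis at 6 h 10 were called without untreated replicate 2 and 9 without treated replicate 3. The median log2 FC of the list was 0.12 in A2780 and -0.04 in A2780cis at 12 h, and 0.26 and 0.12 at 6 h. With scaling by library totals alone the 12 h splits were 15 higher and 5 lower, and 9 higher and 8 lower.

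The largest increases at 12 h were those of APLF, PCNA and POLD4 in A2780, and POLD4 and POLE4 rose most in A2780cis, with APLF set aside there for its low counts. PCNA, the sliding clamp of replication and long-patch repair, had 210.5, 201 and 184 CPM in untreated and 563, 473 and 471 CPM in treated A2780 cells (log2 FC = 1.34, SE 0.10, adjusted p = 3.91e-11). The A2780cis values were 370.5, 339.8 and 324 CPM and 654, 560.0 and 654 CPM (log2 FC = 0.85, SE 0.10, adjusted p = 6.11e-08). It was already higher at 6 h, with log2 FCs of 1.01 and 0.66 (adjusted p = 4.84e-08 and 1.68e-05). POLD4, a small subunit of polymerase delta, rose in A2780, where its means were 9.10 ± 0.792 and 19.8 ± 0.419 CPM (log2 FC = 1.12, SE 0.19, adjusted p = 1.37e-05), and in A2780cis, where they were 8.66 ± 0.177 and 31.9 ± 5.13 CPM (log2 FC = 1.88, SE 0.18, adjusted p = 2.79e-09). Its levels at 6 h were 5.58 ± 2.11 and 8.89 ± 1.47 CPM in A2780 and 7.49 ± 2.03 and 11.6 ± 2.37 CPM in A2780cis. POLE4, a subunit of polymerase epsilon, rose in A2780cis from 9.08 ± 1.66 to 16.5 ± 1.53 CPM (log2 FC = 0.86, SE 0.15, adjusted p = 2.14e-05), and had 14.6 ± 0.676 and 19.5 ± 2.66 CPM in A2780 at 12 h (adjusted p = 0.0157), a call lost without untreated replicate 1 (0.0734) or treated replicate 1 (0.101). APLF, a factor that binds ADP-ribose chains, was low throughout, at 1.39 ± 0.496 against 3.53 ± 0.365 CPM in A2780 (log2 FC = 1.36, SE 0.24, adjusted p = 2.61e-05). In A2780cis it had 1 to 6 counts per untreated and 6 to 12 per treated library of 12 h, and it passed the filter on low counts through the A2780 libraries, so no fold is given for that line.

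The largest decreases at 12 h were those of NTHL1, NEIL2 and MPG in A2780 and of NTHL1, TDP1 and NEIL3 in A2780cis. NTHL1, a glycosylase of oxidized pyrimidines, had 17.2, 18.1 and 17.4 CPM in untreated and 3.78, 5.96 and 5.88 CPM in treated A2780 cells, and 20.8, 20.4 and 27.6 and 7.30, 8.67 and 9.41 CPM in A2780cis. Its log2 FCs were -1.73 (adjusted p = 5.62e-08) and -1.44 (adjusted p = 4.01e-07), and at 6 h its levels were between 7.15 ± 1.23 and 9.92 ± 2.63 CPM in the 4 groups. The untreated means were 9.86 ± 2.73 CPM at 6 h and 17.5 ± 0.466 CPM at 12 h in A2780, and 8.58 ± 1.24 and 23.0 ± 4.06 CPM in A2780cis. NEIL2, a glycosylase that prefers damage in single strands and bubbles, had means of 23.1 ± 1.97 CPM without and 10.5 ± 1.55 CPM with the drug in A2780 (log2 FC = -1.14, SE 0.13, adjusted p = 2.64e-08). The A2780cis means were 53.0 ± 0.884 and 30.5 ± 2.90 CPM (log2 FC = -0.80, SE 0.12, adjusted p = 1.83e-06). MPG, which removes alkylated purines, had 16.1 ± 1.46 and 8.40 ± 1.72 CPM in A2780 (log2 FC = -0.93, SE 0.21, adjusted p = 0.000633) and 24.7 ± 3.56 and 16.2 ± 3.72 CPM in A2780cis (log2 FC = -0.61, SE 0.20, adjusted p = 0.0113), where the adjusted p was 0.0643 without treated replicate 1. At 6 h MPG had 7.24 ± 2.01 CPM untreated and 9.75 ± 2.63 CPM treated in A2780, and 8.52 ± 2.00 and 8.50 ± 1.83 CPM in A2780cis. Its untreated mean was thus higher at 12 h than at 6 h in both lines, and so was its treated mean in A2780cis. TDP1, which frees trapped topoisomerase I from DNA ends, fell in all 4 comparisons, from 43.5 ± 4.65 to 17.3 ± 0.899 CPM in A2780cis at 12 h (log2 FC = -1.33, SE 0.11, adjusted p = 6.27e-11) and from 50.4 ± 0.886 to 26.7 ± 2.35 CPM in A2780 (log2 FC = -0.92, SE 0.10, adjusted p = 3.37e-08). NEIL3, a glycosylase of replicating cells, fell in A2780cis from 35.6, 25.7 and 28.4 to 15.3, 12.9 and 13.3 CPM (log2 FC = -1.11, SE 0.14, adjusted p = 1.75e-07), while in A2780 it had 14.9, 15.7 and 14.5 CPM untreated and 21.2, 17.5 and 19.1 CPM treated (log2 FC = 0.36, adjusted p = 0.0344). That A2780 difference lost its call without any of 5 libraries, all but treated replicate 2, with adjusted p-values from 0.0549 to 0.136.

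At 6 h TDP1 and NEIL3 were the ones of these genes with a decrease past the threshold. TDP1 fell by 0.60 on the log2 scale in A2780 (adjusted p = 0.0001) and by 0.86 in A2780cis (adjusted p = 6.86e-07). NEIL3 fell by 0.87 in A2780cis (adjusted p = 3.15e-05) and had a log2 FC of -0.30 in A2780 (adjusted p = 0.133). NEIL2 (-0.23 and -0.20), MPG (0.44 and 0.01), and POLE4 (0.27 and 0.25) had no called difference, with the log2 FCs of A2780 and A2780cis in brackets, and nor did APLF in A2780 (0.15).

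**Figure D4:**
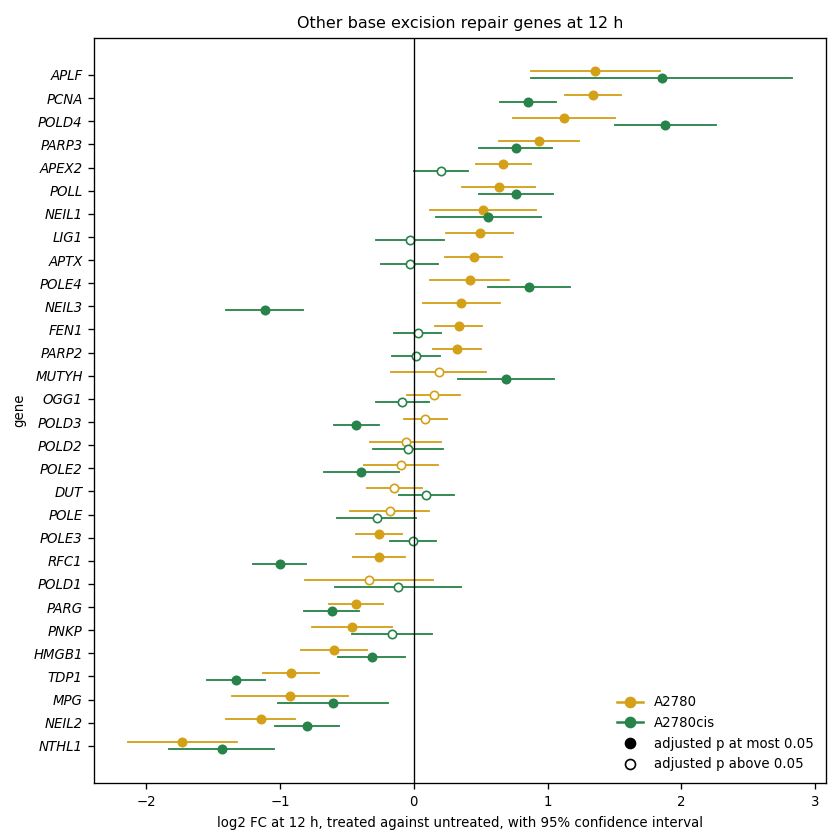
Log2 FC at 12 h of treated against untreated cells (x axis) for the 30 other repair genes (y axis, sorted by the value in A2780), in A2780 (yellow) and A2780cis (green), with 95% confidence intervals and filled points for an adjusted p of at most 0.05. NEIL3 lies at 0.36 in A2780 and at -1.11 in A2780cis, and NTHL1 is the lowest in both lines, at -1.73 and -1.44.

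For each of the 9 genes the protein-coding gene with the most similar course over the 8 groups was looked up among 10752 genes (mean log2 CPM 2 or more), by the root mean square difference of the group means after centring, in log2 units. The nearest were ADAM22 (0.0558) for UNG, ZNF518B (0.0435) for TDG, GSTM2 (0.0730) for SMUG1, SRD5A1 (0.0795) for MBD4, EXOSC7 (0.0836) for APEX1, POFUT2 (0.0614) for XRCC1, RMDN3 (0.0489) for PARP1, PIP4P2 (0.0533) for POLB and UBAP2 (0.0561) for LIG3. The median difference over all candidates was between 0.37 and 0.53. The SD of a gene's own 8 group means was 0.115 for PARP1 and 0.139 for UNG, the flattest of the 9, and 0.434 for TDG. A small difference thus says less for PARP1 and UNG than for TDG. EXOSC7, a subunit of the RNA exosome, followed APEX1 with 60.6 ± 3.12 CPM in untreated and 35.1 ± 2.16 CPM in treated A2780 cells of 12 h, and 60.4 ± 3.91 and 44.5 ± 8.07 CPM in A2780cis. At 6 h it had 63.1 ± 4.11 and 58.4 ± 0.874 CPM, and 63.9 ± 11.4 and 60.8 ± 1.29 CPM. UBAP2 followed LIG3, at 63.2 ± 2.13 and 34.3 ± 2.66 CPM in A2780 and 64.1 ± 8.56 and 33.2 ± 4.14 CPM in A2780cis at 12 h. At 6 h it had 47.8 ± 4.09 and 38.4 ± 1.63 CPM, and 57.9 ± 8.49 and 44.9 ± 1.77 CPM. The group means of the other neighbours ran from 5.62 CPM (A2780cis untreated 12 h) to 7.47 CPM (A2780 treated 6 h) for ADAM22, from 22.7 CPM (A2780cis treated 12 h) to 53.2 CPM (A2780 untreated 6 h) for ZNF518B, from 13.2 CPM (A2780cis untreated 12 h) to 24.9 CPM (A2780 treated 12 h) for GSTM2, from 22.2 CPM (A2780 untreated 12 h) to 36.3 CPM (A2780cis treated 6 h) for SRD5A1, from 14.9 CPM (A2780cis untreated 6 h) to 28.3 CPM (A2780 treated 12 h) for POFUT2, from 38.0 CPM (A2780 untreated 6 h) to 45.8 CPM (A2780 treated 6 h) for RMDN3 and from 15.3 CPM (A2780 untreated 6 h) to 28.0 CPM (A2780cis treated 12 h) for PIP4P2. The profiles of all genes come from the same 24 libraries, and each has 8 points.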

How the data were processed

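RNA of 24 samples (8 groups of 3) was made into stranded total RNA libraries. Per the study's methods, the authors trimmed reads with Trimmomatic, aligned them with STAR 2.5.2b (GRCh38.p7, GENCODE annotation) and counted them over the exons of each gene with featureCounts, so that a read in 2 genes counted for both and a read with several alignments counted as fractions. The strand setting of the counting is not given in the sources used here. The deposited values are estimated counts, raw and not normalized, and 9.50% to 12.8% of a library's entries were not whole. They were rounded here. Depth is the total count per library, 11077368 to 21901406.

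Genes passing filterByExpr (minimum count 10, minimum total 15) were tested with edgeR 4.0.16 in R 4.3.3 (TMM, glmQLFit and glmQLFTest, 1 coefficient per group, 16 residual degrees of freedom). The standard error of a log2 FC was its size over the root of the F statistic. In simulated counts for A2780 at 12 h, 148 of 191 genes changed 2-fold and 5 of 18997 unchanged genes were called. The genes changed there were few and evenly split between higher and lower, whereas 54.8% of genes were called in the data. These rates may thus not hold for the data. Alternatives were the size factors of DESeq2, library size alone, no filter, fractional counts, a block for the replicate number, the compared groups alone, the DESeq2 1.42.0 Wald test, a table without lncRNA and rRNA genes and each library left out. Lengths, coordinates and overlaps come from GENCODE v44 (GRCh38), which listed 56948 of the 63299 identifiers. The length of all exons joined was chosen as an alternative after seeing the data. Replicate libraries of a group differed by more than counting noise in all 24 pairs (chi-square per degree of freedom 2.21 to 25.7). Named were all 9 genes, up to 3 other repair genes with the largest called increase and decrease in each line at 12 h, and the gene nearest in profile to each of the 9. The genes and lists were chosen with earlier results of these data known.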

Additional observations from a re-analysis of the deposited data

Results flagged for a closer look

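Each value here is a difference between the responses to 5-FdU-ECyd in the lines or at the time points, by the interaction term of edgeR's quasi-likelihood test. The response of APEX1 at 12 h was 0.64 higher on the log2 scale in A2780cis than in A2780 (adjusted p = 0.00396). In A2780 the response of APEX1 was -0.75 at 12 h relative to 6 h (adjusted p = 0.00118) and that of PARP1 -0.49 (adjusted p = 0.00432). In A2780cis that of SMUG1 was 0.47 (adjusted p = 0.0252) and that of LIG3 -0.53 (adjusted p = 0.022).

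Of the 9 other named repair genes, 4 had a called difference between the lines at 12 h, given as A2780cis minus A2780, where 23.7% of all genes had one. These genes were named for a large change at 12 h in one of the lines, so the values are a description and not an independent test. The glycosylase NEIL3 had -1.47 (adjusted p = 9.17e-06), called in every alternative and with each library left out. PCNA had -0.49 (adjusted p = 0.0141, and 0.0524 without A2780 treated replicate 1 and 0.0507 with the compared groups alone). TDP1 had -0.41 (adjusted p = 0.0413, and 0.094 with no filter and 0.113 with the compared groups alone). It was not called without any one of 8 libraries, A2780 untreated replicates 1, 2 and 3 and treated replicates 1 and 2 and A2780cis untreated replicates 1 and 2 and treated replicate 2, with adjusted p-values from 0.0574 to 0.118. POLD4 had 0.76 (adjusted p = 0.0348, and 0.0753 with library size alone). It was not called without A2780 untreated replicates 2 or 3, A2780 treated replicate 2, A2780cis untreated replicates 2 or 3 or A2780cis treated replicate 3, with adjusted p-values from 0.0597 to 0.117.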

How the results depend on the processing

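Of 99 values of the 9 genes (11 comparisons), 38 were called, and 23 of these were called in every setting and with every library left out. Another 15 were called in at least 1 setting only, and 46 in none, of which 17 changed sign. Of 30 called values of other named genes, 21 were called throughout and 0 reversed. PARP1 in A2780 at 12 h went to 0.0127 on the log2 scale with library size alone. Values near 0 also changed sign in A2780 at 12 h: TDG went to -0.0106 with no filter and lay from -0.0623 (without treated replicate 1) to 0.0492 with 1 library left out, and UNG from -0.0311 (without treated replicate 1) to 0.103. TDG was also below 0, at -0.0407, without untreated replicate 3.

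Members called were 1 in A2780cis at 6 h with library size alone, with no filter or with the compared groups alone. For the 12 h difference between lines they were 3 with library size alone, 3 with DESeq2 and 2 without lncRNA and rRNA genes. For the shift of response with time in A2780 they were 4 with the size factors of DESeq2, 5 with library size alone, 5 with the compared groups alone, 4 with DESeq2 and 4 without lncRNA and rRNA genes. In A2780cis that count was 1 with library size alone, 1 with no filter and 0 with the compared groups alone. For untreated A2780 cells over time it was 5 with the compared groups alone. With 1 library left out the counts lay from 3 to 6 (A2780, 6 h), 0 to 2 (A2780cis, 6 h), 1 to 2 (12 h difference between lines), 0 to 3 (shift in A2780cis) and 1 to 3 (untreated A2780 over time). Other repair genes called lay from 7 to 13 in A2780 and 9 to 16 in A2780cis at 6 h.

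The share of all genes called fell with no filter, which adds genes of low count to the tests, to 13.9% (A2780, 6 h), 28.5% (A2780, 12 h), 14.5% (A2780cis, 6 h), 31.3% (A2780cis, 12 h), 1.82% and 11.0% (lines compared at 6 h and 12 h), 11.2% and 12.1% (shift in A2780 and A2780cis), 33.7% (untreated lines), 12.4% and 15.8% (untreated A2780 and A2780cis over time). DESeq2 called 5.39% between the lines at 6 h, for which the cause was not tested. With 1 library left out the shares lay from 18.3% to 28.7% (A2780, 6 h), 1.71% to 3.08% (lines at 6 h), 8.86% to 27.3% (untreated A2780 over time) and 24% to 40.6% (untreated A2780cis over time).

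With the replicate number as a block, 7, 6, 2 and 7 members were called in A2780 at 6 h and 12 h and in A2780cis at 6 h and 12 h. Same-numbered libraries did not deviate together (correlations from -0.254 to 0.312 over 12 pairs of libraries, 1 of them above 0.1), and 3 of the 12 libraries compared correlated best with the library of their own number, so the numbers were not read as pairs. POLB had counts below 500 in every library and the widest intervals of the 9 at 6 h, and a link between the 2 was not tested. Intervals cover only the spread between libraries, estimated in 1 fit of all 24 with 3 per group.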
